A study of Mus musculus with 6 samples.

Results

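Killer cell lectin-like receptors are a family of C-type lectin-like surface receptors, and 6 of their genes (Klrb1b, Klrd1, Klrk1, Klrg1, Klra3 and Klra7) are described here in mouse regulatory T cells (Treg) with and without the histone acetyltransferase p300. The members are the probe sets of an expression array whose annotation gives one of these symbols and no other. This rule found 9 probe sets among the 22690 of the array, 4 for Klrb1b, 2 for Klra7 and 1 each for Klrd1, Klrk1 and Klrg1. It found 0 for Klra3, so values cover 5 of the 6 genes. The genes were chosen on measured values, with their log2 difference between the 2 groups in view, so the member values below describe those genes and support nothing.

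RNA came from CD4+CD25+ cells separated with magnets from C57Bl/6 mice. In the p300-deleted group, labelled fl-p300/Foxp3cre, floxed p300 alleles (gene Ep300) were combined with a Cre recombinase driven from Foxp3, so deletion is directed at Foxp3-expressing cells. The controls are labelled Foxp3cre control and carry the Cre without the floxed allele, although their titles say WT. Each group has 3 samples with 1 array each, described as independent, and neither age nor a separate animal per sample is stated. The separation used CD4 and CD25, not Foxp3, so cells of other kinds may be in the samples. In bulk RNA of this sort, fewer cells of a type and less RNA per cell cannot be told apart.

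These receptors are best known from natural killer (NK) cells, where inhibitory members carry a tyrosine motif in their tail that recruits phosphatases and activating members signal through the adaptors DAP10 and DAP12. Most of their genes lie side by side in the natural killer gene complex on mouse chromosome 6, and Klrg1 lies outside that cluster on the same chromosome. T cells also carry several of them after activation, and KLRG1 marks differentiated effector Treg. The roles of the members differ. Klrb1b encodes the inhibitory receptor NKR-P1B, whose ligand is the lectin Clec2d. Klrd1 encodes CD94, which pairs with NKG2 chains to read the MHC class I molecule Qa-1. Klrk1 encodes the activating receptor NKG2D, which binds stress-induced MHC-like proteins. Klra3 and Klra7 are Ly49 receptors for classical MHC class I, and Klrg1 encodes an inhibitory receptor for cadherins.

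The upstream sequences of the 2 member genes of the gene complex whose p300-deleted arrays all lay above the controls are shown as the stretches from which their transcripts start. They are the 250 bases before the RefSeq start site, from build GRCm38.p6, minus strand, at chr6:128826316-128826565 for Klrb1b and chr6:129623865-129624114 for Klrk1. Capitals mark a match to one of 5 motifs searched on both strands.
Klrb1b: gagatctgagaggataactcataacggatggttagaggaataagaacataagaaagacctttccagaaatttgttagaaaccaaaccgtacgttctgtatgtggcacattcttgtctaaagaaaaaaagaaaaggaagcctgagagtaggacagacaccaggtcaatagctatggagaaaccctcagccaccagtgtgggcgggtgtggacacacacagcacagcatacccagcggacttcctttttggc
Klrk1: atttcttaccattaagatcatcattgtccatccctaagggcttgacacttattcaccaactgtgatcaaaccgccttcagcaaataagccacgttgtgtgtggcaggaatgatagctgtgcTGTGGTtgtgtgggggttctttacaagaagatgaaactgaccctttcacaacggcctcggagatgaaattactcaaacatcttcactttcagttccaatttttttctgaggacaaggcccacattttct

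The motifs were the Runx core TGTGGT, the T-box letters TCACACC, the STAT element TTCNNNGAA, the GATA letters AGATAA and the TATA letters TATAAA, of which no match shares bases with another in these windows. The 250-base windows of 14%, 3.33%, 7.02%, 9.99% and 12.4% of all 32851 RefSeq promoter entries hold them, in that order. Klrk1 had 1 match, the Runx core beginning 129 bases before the start site (position -129), and the Klrb1b window had 0. Of the other members, Klra7 has 2 promoter entries, of which the first matched the STAT, GATA and TATA letters and the second none of the 5, and the single Klra3 entry matched the TATA letters. These are matches of letters only. No coordinates of array probes are given.

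Facts of the whole series bear on every value below. The values are log2 expression from RMA, a method that subtracts background and gives all arrays nearly the same distribution. Probe sets for bacterial genes, with no mouse target, had medians of 2.18 to 2.34 per array and serve here as background. Since 0 probe sets are annotated to Ep300, the deletion itself could not be checked. Foxp3, which marks the Treg lineage, read 2.57, 3.04 and 3.15 with p300 deleted and 9.63, 9.35 and 9.39 in the controls, so this defining marker lay close to background on every p300-deleted array. Il2ra, which encodes CD25, read 9.09 to 9.17 against 8.62 to 9.07, and Cd3e 11.46 to 11.63 against 11.21 to 11.53. Cd4 read 9.74 to 10.07 against 8.91 to 9.45, higher in every p300-deleted array at 0.68 (SE 0.16, limma adjusted p = 0.0746). Of the 9 tested T cell and Treg markers 8 had positive differences, where 45.0% of all tested genes did. Their median was 0.25, and only Foxp3 passed by limma, where 1.72% of all tested genes did. For the Gapdh control, the excess of the 3' over the 5' probe set, which reflects RNA quality, was 0.06 to 0.14 with p300 deleted and 0.21 to 0.59 in the controls, highest in control 2. The same excess for the actin control overlapped between the groups, at 0.29 to 0.43 with p300 deleted and 0.30 to 0.46 in the controls. The mean of the 18S ribosomal RNA probe sets was 7.74 to 9.47 with p300 deleted and 5.68 to 8.69 in the controls. The part of RNA quality and 18S in the differences below was not tested by itself, and a fit with the 18S value as covariate is among the alternatives given at the end.

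**Figure D1:**
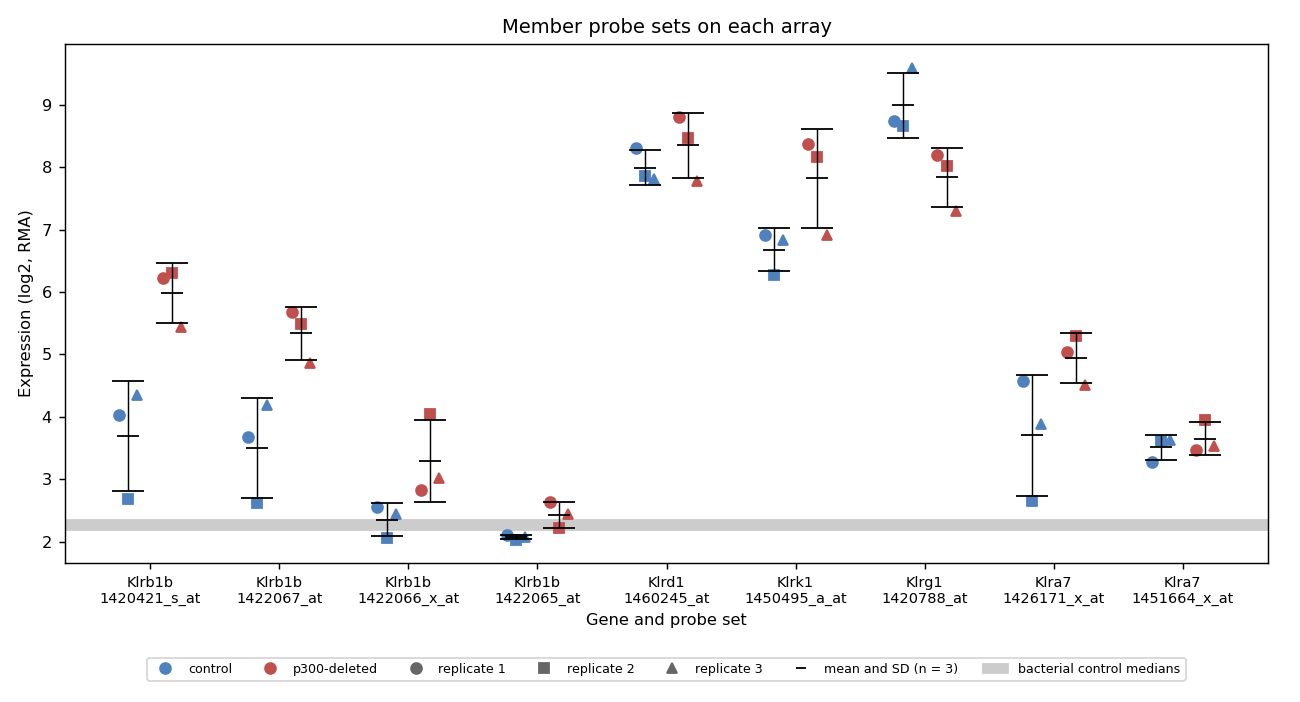
Log2 expression of the 9 member probe sets (x axis) on each of the 6 arrays, controls in blue and p300-deleted in red, with marker shape giving the replicate number and black bars the mean and SD of 3 arrays; the grey band spans the bacterial control medians of 2.18 to 2.34. All 4 Klrb1b probe sets and Klrk1 have every red point above every blue point, Klrg1 has every red point below, and heights of different probe sets are not comparable.

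Klrb1b had the largest difference of the members. Its brightest probe set read 6.22, 6.31 and 5.43 with p300 deleted and 4.03, 2.69 and 4.35 in the controls. The lowest p300-deleted array therefore stood 1.08 above the highest control, and control 2 lay near background. The group means were 5.99 ± 0.48 (SD, n = 3) and 3.69 ± 0.88 (SD, n = 3), a difference of 2.30 (standard error, SE, 0.41), or 4.93-fold. A second probe set read 5.68, 5.49 and 4.87 against 3.68, 2.62 and 4.19, a difference of 1.85 (SE 0.37). P300-deleted 3 and control 2 were the lowest of their groups in both.

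The 2 other Klrb1b probe sets were dim. The first read 2.83, 4.05 and 3.01 with p300 deleted and 2.56, 2.06 and 2.44 in the controls, a difference of 0.95 (SE 0.29), and 0.57 without p300-deleted 2. The other read 2.64, 2.22 and 2.44 against 2.10, 2.03 and 2.07, with controls no higher than the bacterial controls and a difference of 0.36 (SE 0.13). The 4 probe sets thus gave the same direction with sizes from 0.36 to 2.30, smallest where the signal was closest to background. They read 1 gene and are not replicates of one another. The identifier of the brightest, with the difference of 2.30, ends in _s_at, and that of the brighter dim one in _x_at. These endings mark probe sets that can bind related transcripts. The difference of 2.30 therefore cannot be assigned to Klrb1b alone, and part of that signal may come from neighbouring Klrb1 genes. The probe set with the difference of 1.85 has neither ending.

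Klrk1, which encodes NKG2D, read 8.38, 8.17 and 6.92 with p300 deleted and 6.92, 6.28 and 6.84 in the controls. Its means were 7.83 ± 0.79 (SD, n = 3) and 6.68 ± 0.35 (SD, n = 3), a difference of 1.15 (SE 0.35). The groups were apart by only 0.0056, because p300-deleted 3 lay at the level of control 1, while p300-deleted 1 and 2 stood above every control. Leaving out 1 array gave differences from 0.87, without p300-deleted 1, to 1.60, without p300-deleted 3.

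Klrd1, which encodes CD94, read 8.81, 8.46 and 7.78 with p300 deleted and 8.31, 7.86 and 7.81 in the controls. The groups overlapped, with p300-deleted 3 below every control, and the difference of 0.36 (SE 0.25) was smaller than the SD of 0.52 within the p300-deleted group. It was 0.13 without p300-deleted 1 and 0.64 without p300-deleted 3.

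Klra7, the Ly49G receptor, was read by 2 probe sets that did not give the same size. The brighter one read 5.03, 5.30 and 4.51 with p300 deleted and 4.58, 2.66 and 3.88 in the controls, so that control 1 lay above p300-deleted 3. Its difference was 1.24 (SE 0.43), and 0.72 without control 2. The dimmer one read 3.47, 3.95 and 3.53 against 3.28, 3.62 and 3.64, a difference of 0.14 (SE 0.16) within the spread of the replicates, which turned to -0.01 without p300-deleted 2 and was 0.02 without control 1. Ly49 genes are close in sequence and both identifiers end in _x_at, so the signal cannot be assigned to Klra7 alone.

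Klrg1 was the only member lower in the p300-deleted group. It read 8.20, 8.03 and 7.30 with p300 deleted and 8.74, 8.66 and 9.60 in the controls. Every p300-deleted array lay below every control, by at least 0.47, with control 3 the highest and p300-deleted 3 the lowest. The means were 7.84 ± 0.48 (SD, n = 3) and 9.0 ± 0.52 (SD, n = 3), a difference of -1.16 (SE 0.29), or 2.23-fold lower.

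In all, 5 of the 9 member probe sets had every p300-deleted array above every control, against 9.19% of all 22626 non-control probe sets, 1 had every array below, against 10.3%, and 3 overlapped. The median difference of the 9 was 0.95, and that of all probe sets was -0.02. Klrb1b alone held 4 of the 9 probe sets, all among the 5 that were higher, and Klrk1, apart by 0.0056, was the other. Neither the count nor the median is therefore over separate genes. The 5 member genes with a probe set passed the filter on dim genes, a mean over all arrays of at least 3.91, but Klra7 and Klrb1b, with control means of 3.71 and 3.69, passed only through the p300-deleted group. By limma with Benjamini-Hochberg adjustment over 8675 genes, 1 of the 5, Klrb1b, lay past an adjusted p of 0.05, where 1.72% of all genes did. Because that contrast was in view when the members were chosen, these counts are descriptions and nothing is read from them.

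The arrays of a group did not vary alike. Control 2 was the lowest control for 7 of the 9 member probe sets, and for 33.2% of all probe sets. P300-deleted 3 was the lowest p300-deleted array for 6 of the 9, against 31.8% of all probe sets. The exceptions for control 2 were Klrd1, lowest in control 3, and the dim Klra7 probe set, lowest in control 1. Control 2 is also the array with the largest Gapdh excess of 3' over 5' (0.59), whose part in its low receptor values was not tested.

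**Figure D2:**
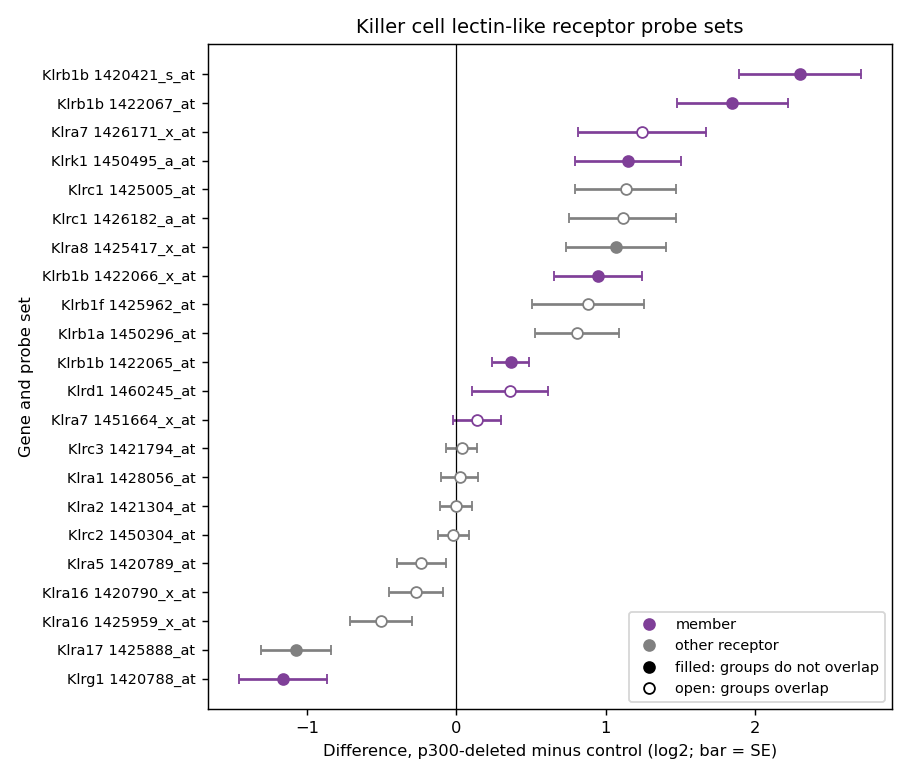
Difference between p300-deleted and control (x axis, log2, bar = SE) for all 22 probe sets annotated to a single killer cell lectin-like receptor gene (y axis), members in purple and other receptors in grey, filled where the arrays of the groups do not overlap. Klrb1b has the largest positive values at 2.30 and 1.85, and Klrg1 at -1.16 and Klra17 at -1.07 the largest negative ones.

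The other receptors of the family, 11 genes with 13 probe sets, were split by the filter on dim genes, a mean over all arrays of at least 3.91. Klrc1, which encodes NKG2A, the inhibitory partner of CD94, read 8.13, 8.04 and 7.31 with p300 deleted and 7.44, 6.07 and 6.58 in the controls by its brighter probe set. Its difference was 1.13 (SE 0.34, limma adjusted p = 0.135), and a second probe set gave 1.11. The values of p300-deleted 3 and control 1 crossed, so the groups overlapped. Klra8, the activating receptor Ly49H, read 4.48, 5.05 and 4.89 against 4.36, 2.90 and 3.95, a difference of 1.07 (SE 0.33, adjusted p = 0.147) with no overlap, and 0.65 without control 2. Its probe set identifier ends in _x_at, so the signal cannot be assigned to Klra8 alone. Klrb1a was at 0.81 (adjusted p = 0.186) and Klrb1f at 0.88 (adjusted p = 0.259), both with overlap, and Klrb1f was at 0.47 without control 2. Of these 4 tested genes 0 passed by limma with adjustment over the 8675 genes, and 4 had an unadjusted p under 0.05. The share of all tested genes under that unadjusted threshold was not counted, so nothing is read from such counts in any list. Klra8, with a control mean of 3.74, passed the filter on dim genes only through the p300-deleted group. Klrb1a passed with array weights (adjusted p = 0.0407). Over all 11 genes by their brightest probe sets, with no filter, 6 differences were positive and 5 negative, with a median of 0.02.

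The 7 remaining receptor genes were too dim to be tested. Klra1, Klra2, Klra16, Klrc2 and Klrc3 read between 2.0 and 2.75 on all arrays by their brightest probe sets, at or near background. Klra5 read 3.50 to 4.27. Klra17, known as Ly49Q, read 3.51, 3.14 and 3.23 with p300 deleted and 3.78, 4.62 and 4.70 in the controls. It was lower in every p300-deleted array, at -1.07, a direction it shared with Klrg1 alone among receptor genes whose groups did not overlap. The control mean of Klra17, 4.37, was above background and above that of Klra8 (3.74). Its mean over all arrays (3.83) fell under the filter through the low p300-deleted arrays. The filter thus left out this lower gene and kept Klra8, which was higher.

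Genes for the ligands of the receptors were taken next. Of 24 listed, 10 were measured and 6 tested, and 0 rose or fell by limma (1 at an unadjusted p under 0.05), with a median of 0.00. Clec2d, the ligand of NKR-P1B, read 10.56, 10.50 and 10.49 with p300 deleted and 10.80, 11.11 and 10.24 in the controls, a difference of -0.20 (SE 0.20, adjusted p = 0.641). The p300-deleted arrays lay within the range of the controls. Clec2i, a related lectin ligand, read 7.50, 7.26 and 7.51 against 6.30, 6.57 and 7.16, higher in every p300-deleted array at 0.75 (SE 0.20, adjusted p = 0.111), and it passed without control 3 (0.99, adjusted p = 0.0198). Without control 1 it was at 0.56 (limma adjusted p = 0.259). The class I genes read by Ly49 receptors were at -0.01 (H2-K1) and 0.01 (H2-D1), and their light chain B2m was at 0.02. The cadherin ligands of KLRG1 were dim, with Cdh1 at 3.11 to 4.06.

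Among adaptors and signalling genes, 0 of 17 tested passed by limma (1 at an unadjusted p under 0.05), with a median of 0.02. Hcst, which encodes DAP10, the adaptor of NKG2D, was at -0.16 (SE 0.25, adjusted p = 0.788). Its sign turned positive without control 2 (0.10). Tyrobp, which encodes DAP12, read 9.38, 8.93 and 8.34 with p300 deleted and 8.25, 8.42 and 8.69 in the controls, a difference of 0.43 (SE 0.24, adjusted p = 0.395), and 0.18 without p300-deleted 1. The order of p300-deleted arrays in Tyrobp, highest in 1 and lowest in 3, was that of Klrk1 and Klrd1. In the controls the order differed, with Tyrobp highest in control 3 and Klrk1 and Klrd1 highest in control 1. Hcst had the reverse order with p300 deleted, at 9.92, 9.96 and 9.97. The phosphatases that inhibitory receptors recruit were at 0.35 for Ptpn11 (SE 0.11, adjusted p = 0.161) and 0.21 for Ptpn6 (adjusted p = 0.333), both higher in every p300-deleted array, although Ptpn11 was at -0.0024 when its probe sets were averaged.

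**Figure D3:**
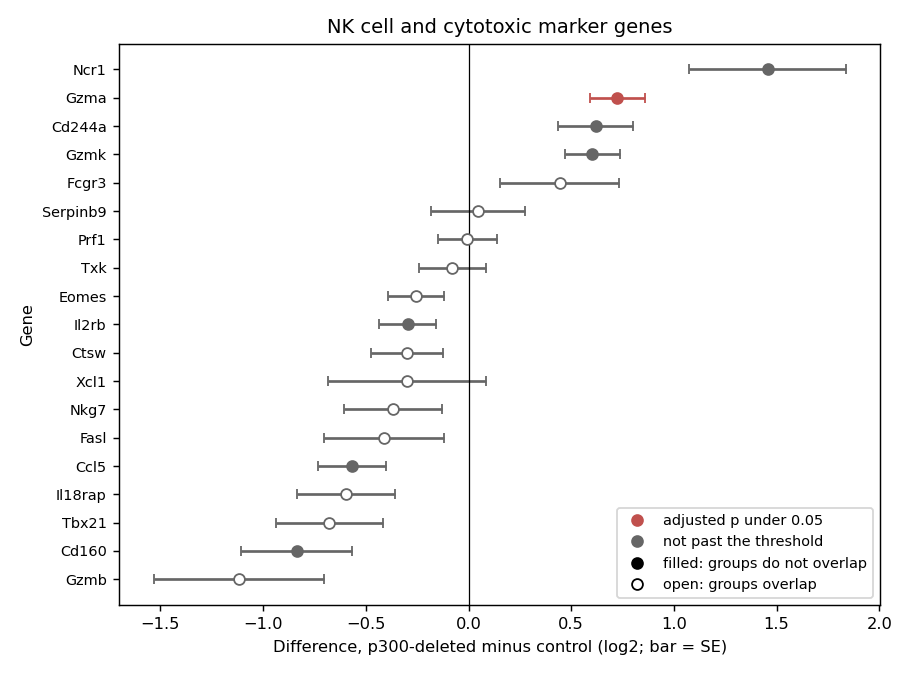
Difference between p300-deleted and control (x axis, log2, bar = SE) for the 19 tested NK cell and cytotoxic marker genes (y axis), red where limma passed, filled where the arrays of the groups do not overlap. Ncr1 at 1.46 and Gzma at 0.73 lie at the top, and Gzmb at -1.12 and Cd160 at -0.84 at the bottom.

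Because the receptors are NK cell genes, markers of NK and cytotoxic cells are set beside them. Ncr1, the NK cell receptor NKp46, read 7.36, 7.06 and 5.65 with p300 deleted and 5.10, 5.13 and 5.47 in the controls. It was higher in every p300-deleted array, at 1.46 (SE 0.38, adjusted p = 0.0982), and past the threshold without p300-deleted 3 (1.97, adjusted p = 0.00831). Without p300-deleted 1 it was at 1.12 (limma adjusted p = 0.218), and without p300-deleted 2 at 1.27 (limma adjusted p = 0.338). Like Klrk1 it was high in p300-deleted 1 and 2 and near the controls in p300-deleted 3. The granule protease Gzma read 9.40, 9.56 and 9.51 against 8.49, 8.91 and 8.89 and rose by 0.73 (SE 0.14, adjusted p = 0.0445). That call was lost without any p300-deleted array and without control 1 or 2, with adjusted p of 0.0505 to 0.190. Gzmk was at 0.60 (adjusted p = 0.0681) and Cd244a at 0.62 (adjusted p = 0.131), both with no overlap.

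Other cytotoxic genes had negative differences, of which 0 passed by limma and 5 had an unadjusted p under 0.05. Gzmb was at -1.12 (adjusted p = 0.212), Cd160 at -0.84 (adjusted p = 0.162), Tbx21, which encodes T-bet, at -0.68 (adjusted p = 0.219) and the chemokine Ccl5 at -0.57 (adjusted p = 0.128). Eomes, a transcription factor of NK cells, was at -0.26 (adjusted p = 0.365), and Itga2, which encodes the NK cell marker CD49b, lay at 2.62 to 3.05, too dim to test. Of the 19 tested genes 1 rose, where 0.991% of all tested genes did, and 18 did not pass. In this list 6 were positive, and the median was -0.30. Arrays did not overlap for 4 genes that were higher and 3 that were lower, where 10.5% and 13.2% of all tested genes were. Relative to each gene's mean over all arrays, the list stood at 0.24, -0.10 and -0.29 with p300 deleted and 0.07, 0.12 and -0.04 in the controls. The groups overlapped in this list. Most genes of the list are also expressed by activated T cells.

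Markers of some further cell types differed between the groups. Of 11 tested mast cell and basophil markers 6 rose, where 0.991% of all tested genes did, and the list stood at 0.22 to 0.72 with p300 deleted and -0.57 to -0.39 in the controls. Of 8 plasma cell markers 5 rose, with 0.20 to 0.70 against -0.49 to -0.37. Leaving out 1 array gave 0 to 4 called genes in either list, with 0 in both without control 1. The 18S covariate gave 3 and 1. Of 13 tested myeloid markers 0 passed by limma (6 at an unadjusted p under 0.05), with 0.04 to 1.08 against -0.87 to -0.01, highest in p300-deleted 1 and lowest in control 2, and 3 others (Itgam, Cd14 and Fcgr1) were dim. Of 6 B cell markers 1 fell, where 0.726% of all tested genes did, and 0 fell without p300-deleted 2 or 3 or without control 1 or 2. Dendritic cell markers (6 tested), CD8 T cell markers (3) and gamma delta T cell and innate lymphoid markers (3) had 0 calls by limma, with 1, 1 and 0 genes at an unadjusted p under 0.05. The CD8 list stood at 0.06 to 0.13 with p300 deleted and -0.11 to -0.07 in the controls. Cd8b1 was at 0.35 (SE 0.11, limma adjusted p = 0.161) with no overlap, and Cd8a and Crtam were both at 0.10 with overlap. The B cell, dendritic cell, and gamma delta and innate lymphoid lists overlapped between the groups. The part of any of these cell types in the receptor values was not tested.

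Genes that Treg carry as effector cells were set beside Klrg1. Of 17 tested, 1 rose, where 0.991% of all tested genes did, 2 fell, where 0.726% did, and 14 did not pass. An unadjusted limma p under 0.05 was reached by 1 positive and 8 negative ones, with no share of all genes counted beside them. In this list 5 were positive, and the median was -0.20. Arrays did not overlap for 2 genes that were higher and 5 that were lower, where 10.5% and 13.2% of all tested genes were. Il10, a suppressive cytokine, rose by 0.91 (SE 0.14, adjusted p = 0.0283). The calcium-binding proteins S100a6 and S100a4 both fell. The S100a6 difference was -0.91 (SE 0.18, adjusted p = 0.0459), and for S100a4 it was -0.80 (SE 0.16, adjusted p = 0.0493). All 3 calls were lost without p300-deleted 1, 2 or 3 and without control 1, S100a4 also without control 2, and both S100 genes without control 3. Positive differences included Ctla4, an inhibitory receptor, at 0.30 with no overlap (adjusted p = 0.287), and Ikzf2, the transcription factor Helios, at 0.60 (adjusted p = 0.448). Negative ones included Ccr2 at -1.20 (adjusted p = 0.183), Itgae at -0.82 (adjusted p = 0.192), Cd44 at -0.72 (adjusted p = 0.116) and Icos at -0.69 (adjusted p = 0.205).

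Few other genes of the gene complex could be tested. Of 63 genes outside the receptor family that RefSeq lists between Klrb1a and Klra2, 9 were measured and 5 tested, and 0 passed by limma (2 at an unadjusted p under 0.05). Gabarapl1, an autophagy gene between the receptor clusters, was at 0.49 (SE 0.14, adjusted p = 0.126), Clec7a, the beta-glucan receptor Dectin-1 of myeloid cells, at 0.47 (adjusted p = 0.420), and the ligand genes Clec2d and Clec2i, given above, lie in the same stretch.

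**Figure D4:**
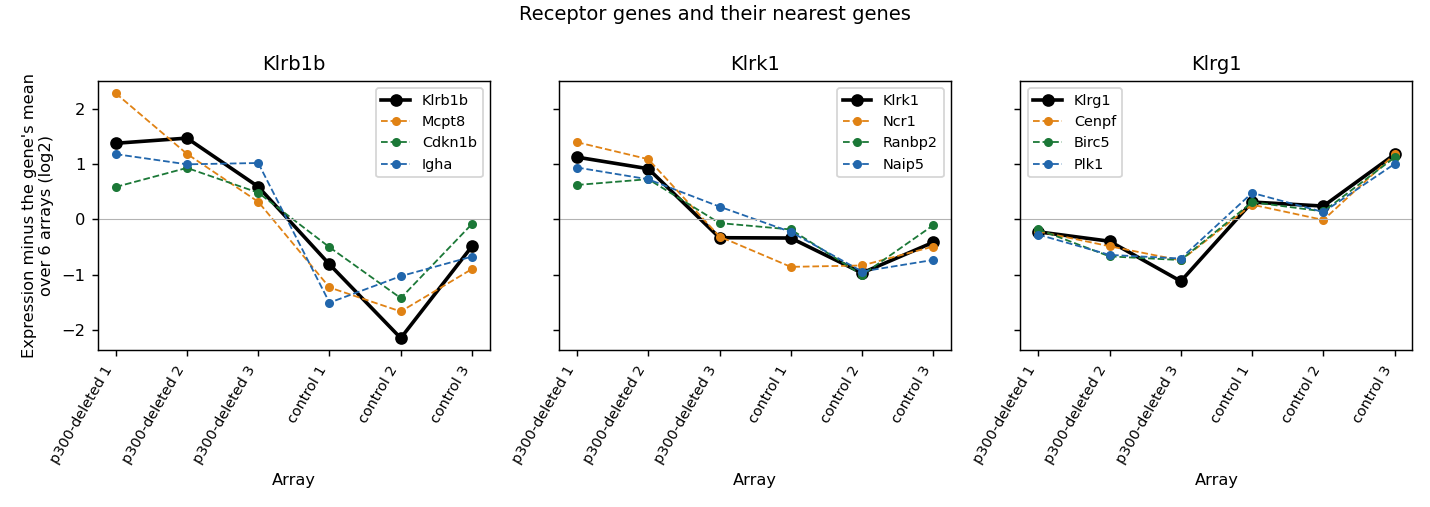
Log2 expression minus each gene's mean over the 6 arrays (y axis) on each array (x axis) for Klrb1b, Klrk1 and Klrg1 (black) and the 3 tested genes whose profile is nearest to each; lines join the points of a gene and imply no order. Klrk1 and Ncr1 are both high in p300-deleted 1 and 2 only, and Klrg1 and the mitotic genes Cenpf, Birc5 and Plk1 peak in control 3.

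The genes with the most similar profile over the 6 arrays were found by the root mean square difference of log2 values after centring each gene. For Klrk1 the nearest of all tested genes was Ncr1 (0.26), followed by Ranbp2 (0.28), a nuclear pore protein, and Naip5 (0.29), an inflammasome sensor. For Klra7 they were Klrc1 (0.25) and Klra8 (0.32), which are other members of the family, and Slc25a24 (0.32). For Klrg1 they were Cenpf (0.19), Birc5 (0.20) and Plk1 (0.22), 3 genes of mitosis, at -0.96, -1.06 and -1.08. For Klrd1 they were Macf1 (0.13), the chemokine Ccl3 (0.14) and Brwd1 (0.15). For Klrb1b they were less close, with the basophil protease Mcpt8 (0.51; difference 2.53, adjusted p = 0.0374, not past the threshold without control 1 or 2 or without p300-deleted 2), the cell cycle inhibitor Cdkn1b (0.53) and the antibody heavy chain Igha (0.61). Such a likeness over 6 arrays in 2 groups is a description of profiles, which share the group difference and the arrays.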

How the data were processed

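Total RNA was labelled with biotin and measured on 6 arrays, 3 p300-deleted and 3 control. The authors deposited log2 expression for each probe set, computed with RMA according to the submitters' processing notes, whose version no source used here gives. Samples were grouped by title. Of 22626 non-control probe sets, the platform annotation gave 20380 a single symbol and 691 several, and 0 symbols changed on matching to RefSeq (GRCm38.p6). Member values and SE came from a limma 3.58.1 fit (R 4.3.3) over all 22626 non-control probe sets, with no filter. Other genes came from a limma fit (lmFit, eBayes, two-sided) on the brightest probe set per gene, leaving out the 30% of 12393 genes with means under 3.91, with adjustment over the remaining 8675. The fit was tested on simulated data. The members and lists were chosen with earlier results of these data known. Cd8a, Cd8b1 and Crtam were named after their values were seen. Named genes were all members, direct partners, up to 4 called or 2 uncalled genes per list, and the 3 nearest genes; Gzmb, Cd160, Ccr2, Clec7a, Itga2, Itgam, Cd14, Fcgr1, Ccl5, Gzmk, Cd244a, Tbx21, Itgae, Cd44, Icos, Ikzf2, Ctla4, Ptpn6, the class I genes and the receptors outside the members were named after their values were seen. Separate animals are not stated, so p-values reflect only the spread of these samples, possibly technical. The number of arrays limits the precision.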

Additional observations from a re-analysis of the deposited data

Results flagged for a closer look

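Of the 2 probe sets that list a member together with another gene, and which the comparisons above leave out, the one listing Klra9 and Klra3 carried a signal above the controls. It read 7.83, 8.02 and 7.96 with p300 deleted and 7.06, 6.26 and 7.13 in the controls, a difference of 1.12 (SE 0.22) with every p300-deleted array above every control. It cannot be assigned to either Ly49 gene. The other, listing Klrb1b and Klrb1c, read 7.46, 6.66 and 6.45 against 6.47, 5.04 and 6.09. Its difference was 0.99 (SE 0.37), and the groups overlapped because p300-deleted 3 lay just below control 1.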

How the results depend on the processing

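The 9 member differences moved by less than 1 SD under all 12 alternatives run for them, and 8 of 9 were positive as in the main fit, or 7 where the dim Klra7 probe set (-0.06 to 0.28) turned. Counts of calls were less stable. Genes called numbered 149, and 95 when probe sets of a gene were averaged, 1019 with array weights, 98 with the replicate number as a block, 15 with the 18S covariate and 9 to 230 leaving out 1 array. Member genes called, a description only, numbered 0 without the dimmest 50% of genes, with the mean of probe sets, with a trended and robust variance, with the replicate block and with the 18S covariate, 2 with array weights and 0 to 1 leaving out 1 array. Klrb1b was called in 6 of the 15 alternatives run for genes, and was too dim to be tested in the first 2 named. Its call was lost without p300-deleted 1, 2 or 3 and without control 1. The 1 call without p300-deleted 3 was Klrk1. Array weights called 1 other receptor, 1 ligand, 1 adaptor or signalling gene, 7 NK markers, 6 effector Treg genes and 2 complex neighbours. The block called 1 other receptor (Klrb1a, adjusted p = 0.0480) and lost S100a4 (adjusted p = 0.0707). The 18S covariate called 0 NK markers and 0 effector Treg genes, of which a further quantile normalization and the mean of probe sets each called 1. Leaving out 1 array gave 0 to 1 ligands, 0 to 2 NK markers, 0 to 2 effector Treg genes and 0 to 1 neighbours. Signs turned for Clec2d (0.086) and Hcst (0.20) with the 18S covariate, for Hcst leaving out 1 array (-0.47 to 0.10, positive without control 2) and for Ptpn11 with the mean of probe sets (-0.0024). The mast cell and basophil, plasma cell and B cell marker counts were run under the same alternatives, chosen after seeing the data, and mast cell and basophil calls numbered 1 of 2 tested without the dimmest 50% of genes. The cause of these changes was not tested. Same-numbered samples did not deviate together (correlations -0.01, 0.08 and -0.08). These correlations cannot tell whether such samples were prepared as pairs, which is not stated. Dim values limit what Klra17 and the cadherin ligands can show.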
